A study of Mus musculus with 6 samples.

Results

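The 10 genes described here encode the mouse enzymes of the TCA cycle that carry succinyl-CoA through succinate, fumarate and malate to citrate. They were listed by name and not by a cutoff on their values, though earlier results of these data were known. They are *Suclg1*, *Suclg2* and *Sucla2* of succinyl-CoA ligase, *Sdha*, *Sdhb*, *Sdhc* and *Sdhd* of succinate dehydrogenase, *Fh1* of fumarase, *Mdh2* of mitochondrial malate dehydrogenase and *Cs* of citrate synthase. All 10 were found on the array through RefSeq accessions, among 22907 genes named in that way, and all 10 were among the 14894 genes bright enough to be tested. RNA came from OS3 cells, an SV40-immortalized glial line from the brain of newborn C3H/HeN mice (labeled as male), after 2 days in MEM-α medium with GlutaMAX, serum, insulin and added glucose. WT cells (OS3-vector, 3 dishes) carried the empty pcDNA3.1 plasmid, and IG27 cells (OS3-H3F3A_K27M, 3 dishes) carried the same plasmid expressing histone H3.3 with the K27M substitution. Both lines were grown out under drug selection, by which the paper reports that several clones were made. The sample titles name no clone, and they number the replicates without saying that these are separate dishes. Each replicate was taken as 1 dish, and the dishes of a group as samples of 1 line. The p-values thus measure the spread between these replicates and not between independently made lines. Each dish was read on 1 single-color Agilent array, and levels are log2 intensities after the 75th percentile of the array was subtracted, so 0 is the 75th percentile.

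In the TCA cycle, succinyl-CoA ligase splits succinyl-CoA and stores its energy in a nucleotide. Its alpha subunit pairs with either of a pair of beta subunits, one specific for ATP and the other for GDP and GTP, and in brain the ATP-specific form is known to predominate. Succinate dehydrogenase, which is also complex II of the respiratory chain, oxidizes succinate to fumarate with a catalytic flavoprotein and an iron-sulfur subunit held to the inner mitochondrial membrane by a pair of small anchor subunits. Fumarase hydrates fumarate to malate, malate dehydrogenase oxidizes malate to oxaloacetate, and citrate synthase joins oxaloacetate to acetyl-CoA. Succinate and fumarate are known to inhibit dioxygenases that use α-ketoglutarate, including histone and DNA demethylases, and loss of succinate dehydrogenase or fumarase is known in human tumors. The array measures the RNA of these enzymes, not their activity or their metabolites.

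The promoters of the 4 genes that changed most are shown, since they include the beta subunits that moved apart and the succinate dehydrogenase subunits that fell by a similar amount. Each is the 250 bases before the annotated start on the gene's strand in RefSeq GRCm38.p6 (*Suclg2* at chr6:95718847-95719096, minus strand; *Sucla2* at chr14:73552536-73552785, plus strand; *Sdha* at chr13:74350241-74350490, minus strand; *Sdhd* at chr9:50603850-50604099, minus strand). Capitals mark matches on either strand to the core of the motif of NRF1 (GCGC, then A, any base and GCGC), a factor known for the control of nuclear genes for mitochondria.
Suclg2: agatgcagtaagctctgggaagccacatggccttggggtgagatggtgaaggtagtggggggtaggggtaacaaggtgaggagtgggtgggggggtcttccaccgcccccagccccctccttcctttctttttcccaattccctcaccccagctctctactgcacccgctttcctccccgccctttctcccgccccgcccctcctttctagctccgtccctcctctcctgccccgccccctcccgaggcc
Sucla2: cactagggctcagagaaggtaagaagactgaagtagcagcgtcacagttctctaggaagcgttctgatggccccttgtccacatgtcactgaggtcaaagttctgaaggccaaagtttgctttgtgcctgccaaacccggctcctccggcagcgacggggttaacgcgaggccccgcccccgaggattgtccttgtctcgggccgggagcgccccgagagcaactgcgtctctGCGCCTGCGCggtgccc
Sdha: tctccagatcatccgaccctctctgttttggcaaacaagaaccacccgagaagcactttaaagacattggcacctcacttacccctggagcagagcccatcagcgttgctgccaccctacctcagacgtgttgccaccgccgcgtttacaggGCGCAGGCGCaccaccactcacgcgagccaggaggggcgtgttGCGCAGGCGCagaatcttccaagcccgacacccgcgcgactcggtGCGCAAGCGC
Sdhd: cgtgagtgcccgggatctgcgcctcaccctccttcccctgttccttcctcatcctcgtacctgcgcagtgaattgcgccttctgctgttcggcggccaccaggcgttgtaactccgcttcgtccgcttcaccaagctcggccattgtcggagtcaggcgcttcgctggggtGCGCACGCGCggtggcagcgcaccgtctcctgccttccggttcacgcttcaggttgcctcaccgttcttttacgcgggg

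Of the 10 genes, 9 were matched in the promoter table. The NRF1 core was found 3 times in *Sdha* and 1 time each in *Sdhd* and *Sucla2*, and 3.74% of 32851 mouse promoters of this length hold it. *Sdha* and *Sdhd* fell in IG27 cells and *Sucla2* rose, so the genes with this match did not share a direction. The GABPA motif CCGGAAG, searched like the others on both strands, was found in *Sdhd* alone (6.91% of all promoters), and the SP1 motif GGGCGG in *Suclg2*, *Sucla2*, *Sdhb*, *Fh1*, *Mdh2* and *Cs* (32.7% of all promoters). The ESRRA motif AAGGTCA was found in none of the 9 (4.08% of all promoters). Of the 4 promoters printed, *Suclg2* holds 8 CpG dinucleotides, against 18 in *Sucla2*, 21 in *Sdha* and 27 in *Sdhd*, while its GC content of 64.4% equals that of *Sdhd*. The median over all promoters was 6 CpG and 52.4% GC. The NRF1 core itself contains CpG, and its share over promoters equally rich in CpG was not computed. These matches are descriptions of letters, and binding was not measured.

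IG27 cells had less RNA of 6 of the 10 genes and more of 1. *Suclg2*, the beta subunit of the GTP-forming ligase, was 5.06-fold lower, and *Sucla2*, the beta subunit of the ATP-forming ligase, was 1.73-fold higher. Of succinate dehydrogenase, *Sdhd* (a membrane anchor) was 2.02-fold lower and *Sdha* (the catalytic flavoprotein) was 1.92-fold lower, whereas *Sdhb* and *Sdhc* did not pass the test. *Suclg1*, *Mdh2* and *Cs* were lower by smaller amounts, and *Fh1* did not pass the test. The test was limma with Benjamini-Hochberg adjustment over all 14894 genes, two-sided, and a gene was called at an adjusted p under 0.05. By this rule 70.5% of all genes tested were called, 30.5% higher and 40% lower in IG27 cells, so a call alone was the common case. The methods of the study give a p of at most 0.05 and name no adjustment. By an unadjusted p of at most 0.05, 72.9% of all genes and the same 7 of these 10 passed. The groups did not overlap for 7 of the 10 genes, against 75.7% of all genes. The median log2 fold change of the 10 genes was -0.40, beside -0.07 for all genes tested. In these bulk samples, less RNA per cell and fewer cells that express a gene cannot be told apart.

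**Figure D1:**
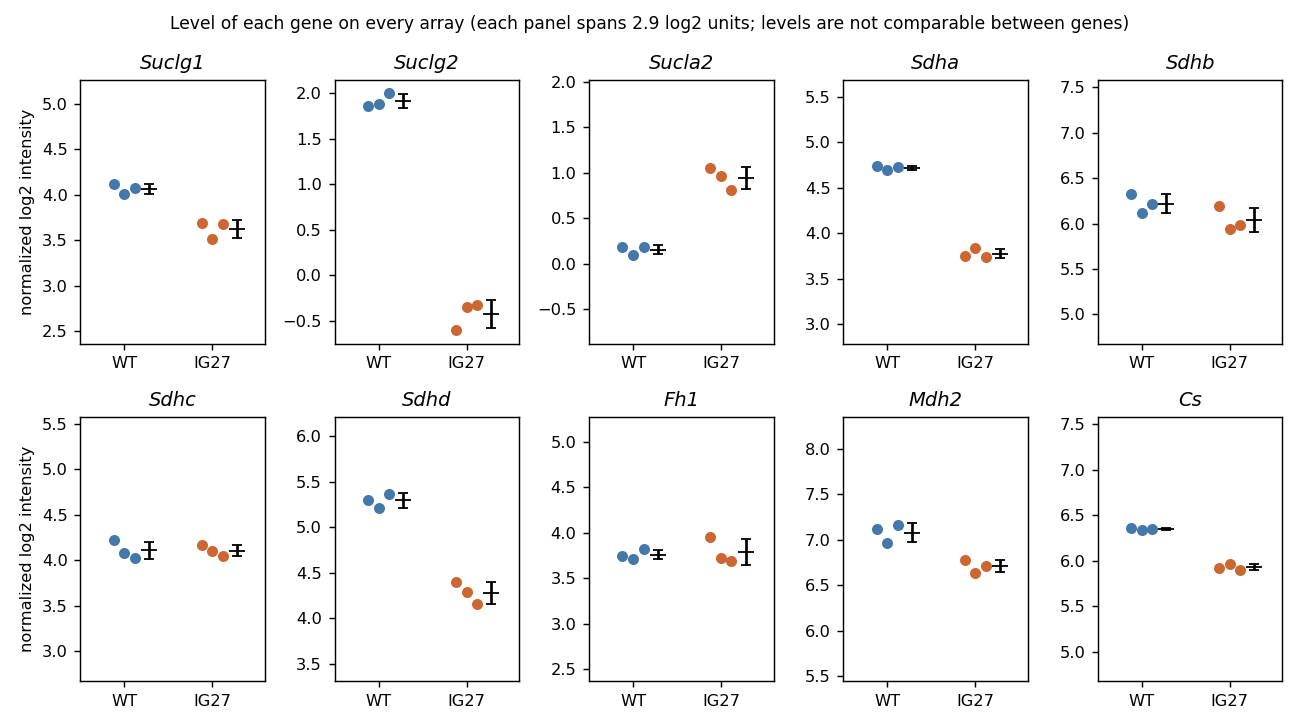
Normalized log2 intensity (vertical axis, 0 is the 75th percentile of the array) of the 10 genes on the 3 WT and 3 IG27 arrays, 1 point per array in the order of replicates 1 to 3, with the group mean ± SD as a bar beside the points. Every panel spans the same number of log2 units, so the drop of *Suclg2* by 2.34 and the overlap of the groups for *Sdhb*, *Sdhc* and *Fh1* can be compared by eye, while levels cannot be compared between panels.

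The 3 genes of succinyl-CoA ligase each moved differently. The normalized log2 level of *Suclg2* was 1.86, 1.88 and 2.00 in the WT dishes (replicates 1 to 3, the order used for all values) and -0.60, -0.35 and -0.33 in the IG27 dishes. All 3 IG27 dishes lay far below all 3 WT dishes. Its log2 fold change was -2.34 (95% interval -2.56 to -2.12, standard error (SE) 0.09, limma adjusted p = 2.93e-06), and only 380 of the 14894 genes (2.55%) had a log2 fold change as low or lower. On the linear scale the processed signal of this probe was 3830 to 3955 in WT cells and 720 to 892 in IG27 cells. The array carries 3 probes for *Suclg2*, and the other two had log2 fold changes of -2.16 and -2.40, both called lower, so the decrease did not rest on 1 probe. The dimmest of them read 233 to 294 in WT and 41.8 to 60.8 in IG27 cells. By the flag of the scanner software it was still well above background in both groups, on the arrays with flags. IG27 replicate 2 has none.

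*Sucla2* moved the other way. Its levels were 0.19, 0.10 and 0.18 in the WT dishes and 1.05, 0.97 and 0.81 in the IG27 dishes, with every IG27 dish above every WT dish. The log2 fold change was 0.79 (95% interval 0.61 to 0.97, SE 0.07, limma adjusted p = 1.39e-04), and 14.6% of all genes rose as much or more. *Suclg1* encodes the alpha subunit that both forms of the ligase share. It had levels of 4.12, 4.01 and 4.07 in WT and of 3.69, 3.51 and 3.68 in IG27 cells, again without overlap. Its log2 fold change was -0.44 (SE 0.07, limma adjusted p = 0.00132), which 29.2% of all genes matched or exceeded in the same direction. Quantile normalization reduced it to -0.28, still called. *Sucla2* and *Suclg1* have 1 probe each, so no second probe bears on them.

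The unequal change of the ligase subunits was also expressed within each array, as the log2 value of 1 subunit minus that of its partner. Each mean shift restates the difference of the fold changes above, so it is no separate evidence. It adds only the spread of the within-array differences. *Suclg2* minus *Sucla2* ran from 1.67 to 1.82 on WT arrays and from -1.66 to -1.14 on IG27 arrays. The balance of the beta subunits thus shifted by -3.13 log2 units (SE 0.16) toward *Sucla2*. *Suclg2* minus *Suclg1* shifted by -1.90 (SE 0.14), and *Sucla2* minus *Suclg1* by 1.23 (SE 0.10). None of the 3 overlapped between the groups, and neither did 75.7% of all single genes tested. The share over other gene pairs was not computed. With 3 arrays against 3, the exact two-sided permutation test cannot give a p below 0.1, which each of the 3 reached (0.1125 after Benjamini-Hochberg adjustment over the 9 pairs compared in this way).

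The genes of succinate dehydrogenase split into a pair that fell and a pair that did not pass the test. *Sdha*, the flavoprotein that binds succinate, had levels of 4.73, 4.69 and 4.73 in WT cells and of 3.75, 3.83 and 3.74 in IG27 cells. All IG27 dishes were below all WT dishes, with a log2 fold change of -0.94 (95% interval -1.06 to -0.82, SE 0.05, limma adjusted p = 9.58e-06). A dimmer *Sdha* probe gave -0.99. *Sdhd*, the smaller membrane anchor, had levels of 5.30, 5.21 and 5.37 in WT and of 4.40, 4.29 and 4.15 in IG27 cells, also without overlap. Its log2 fold change was -1.02 (95% interval -1.21 to -0.82, SE 0.08, limma adjusted p = 6.18e-05). Of all genes, 13.0% fell as much as *Sdha* or more, and 11.5% as much as *Sdhd* or more.

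*Sdhb*, the iron-sulfur subunit, had levels of 6.32, 6.12 and 6.21 in WT and of 6.19, 5.94 and 5.98 in IG27 cells. The groups overlapped, and the log2 fold change was -0.18 (95% interval -0.40 to 0.04, SE 0.09, limma adjusted p = 0.119). Its dimmer probe gave -0.20 and passed the test by a small margin in the fit over all probes (adjusted p = 0.0484 from limma, where 69.7% of 21891 probes were called). The call of *Sdhb* also depended on the processing: the mean of its probes gave -0.19 (adjusted p = 0.0483), the fit without IG27 replicate 1 gave -0.26 (adjusted p = 0.0343), and normexp background correction gave 0.0097. *Sdhc*, the larger anchor subunit, had levels of 4.22, 4.08 and 4.03 in WT and of 4.17, 4.10 and 4.05 in IG27 cells. The dishes were interleaved, and the log2 fold change was -0.0055 (95% interval -0.17 to 0.16, SE 0.07, limma adjusted p = 0.948). The interval leaves room for any change from -0.17 to 0.16.

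Within arrays, *Sdha* minus *Sdhd* ran from -0.64 to -0.53 on WT arrays and from -0.65 to -0.41 on IG27 arrays. The groups overlapped, and the shift was 0.073 log2 units (SE 0.08, exact permutation p = 0.5). The other 5 pairs of the complex did not overlap between the groups, each at the smallest possible exact p of 0.1 (0.1125 over the 9 pairs). Of single genes, 75.7% did not overlap either, and the share over other gene pairs was not computed. *Sdhc* minus *Sdhd* shifted by 1.01 (SE 0.09) and *Sdha* minus *Sdhc* by -0.94 (SE 0.07). *Sdhb* minus *Sdhd* shifted by 0.84 (SE 0.08) and *Sdha* minus *Sdhb* by -0.76 (SE 0.11). The smallest of these was *Sdhb* minus *Sdhc*, which shifted by -0.17 (SE 0.07). Its lowest WT value, 2.03, lay just above its highest IG27 value, 2.02. As for the ligase, these shifts restate the fold changes above. Levels of 2 different probes cannot be set against each other, so only the shift between groups, and not the stoichiometry, can be read from these values.

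**Figure D2:**
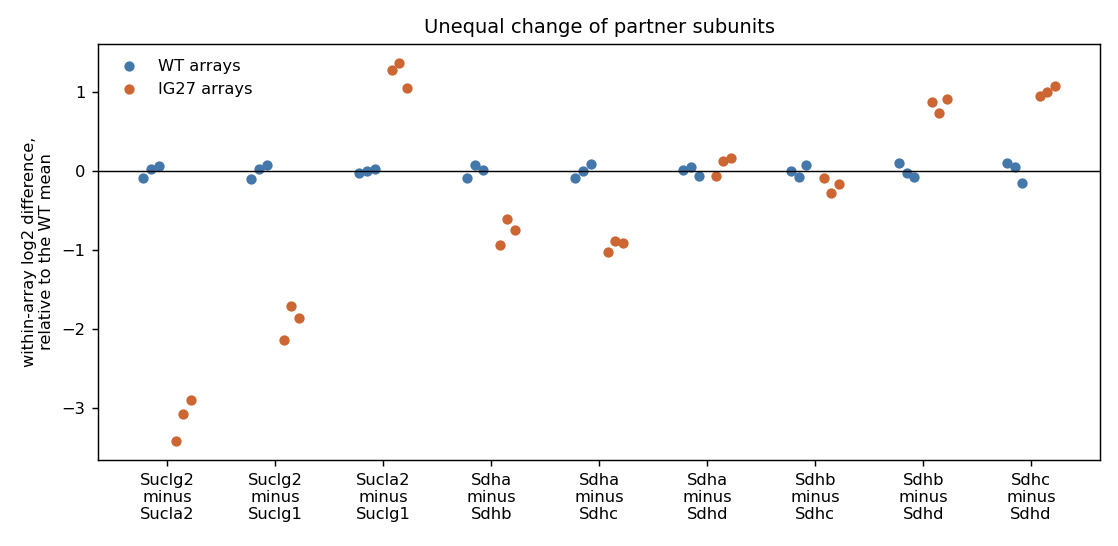
Within-array log2 difference between partner subunits (vertical axis, relative to the mean of the 3 WT arrays) for 9 pairs, 1 point per array. The IG27 arrays lie furthest from the WT arrays for *Suclg2* minus *Sucla2*, whose mean shift is -3.13, and overlap them for *Sdha* minus *Sdhd*, whose mean shift is 0.073.

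Of the later steps, *Mdh2* and *Cs* were lower in IG27 cells and *Fh1* did not pass the test. *Fh1*, the mouse fumarase gene, had levels of 3.75, 3.72 and 3.82 in WT and of 3.95, 3.72 and 3.70 in IG27 cells. IG27 replicate 1 was above all WT dishes and IG27 replicate 3 below them, and the log2 fold change was 0.027 (95% interval -0.17 to 0.23, SE 0.08, limma adjusted p = 0.788). Quantile normalization in place of the 75th percentile gave 0.18 and a call (adjusted p = 0.0438), and the fit without IG27 replicate 1 gave -0.054, so no direction is given for *Fh1*. *Mdh2*, the mitochondrial enzyme that forms oxaloacetate, had levels of 7.12, 6.96 and 7.16 in WT and of 6.77, 6.64 and 6.71 in IG27 cells, without overlap. Its log2 fold change was -0.37 (SE 0.07, limma adjusted p = 0.00386), a decrease of 1.29-fold. Normexp reduced it to -0.24, still called.

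*Cs*, which starts the cycle by forming citrate, had levels of 6.36, 6.34 and 6.34 in WT and of 5.92, 5.97 and 5.90 in IG27 cells. The dishes of each group lay close together and the groups did not overlap, with a log2 fold change of -0.42 (SE 0.04, limma adjusted p = 2.35e-04). Its dimmer probe fell by less, with -0.20 (adjusted p = 0.0162 from limma over all probes), so the size of the decrease depends on the probe. Decreases of this size were common, since 32.6% of all genes fell as much as *Mdh2* or more and 30.2% as much as *Cs* or more. Over all 15 probes of the 10 genes, 11 were called lower and 1 higher, beside 38.8% of all probes called lower. All 15 were well above background in both groups, on the arrays with flags.

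**Figure D3:**
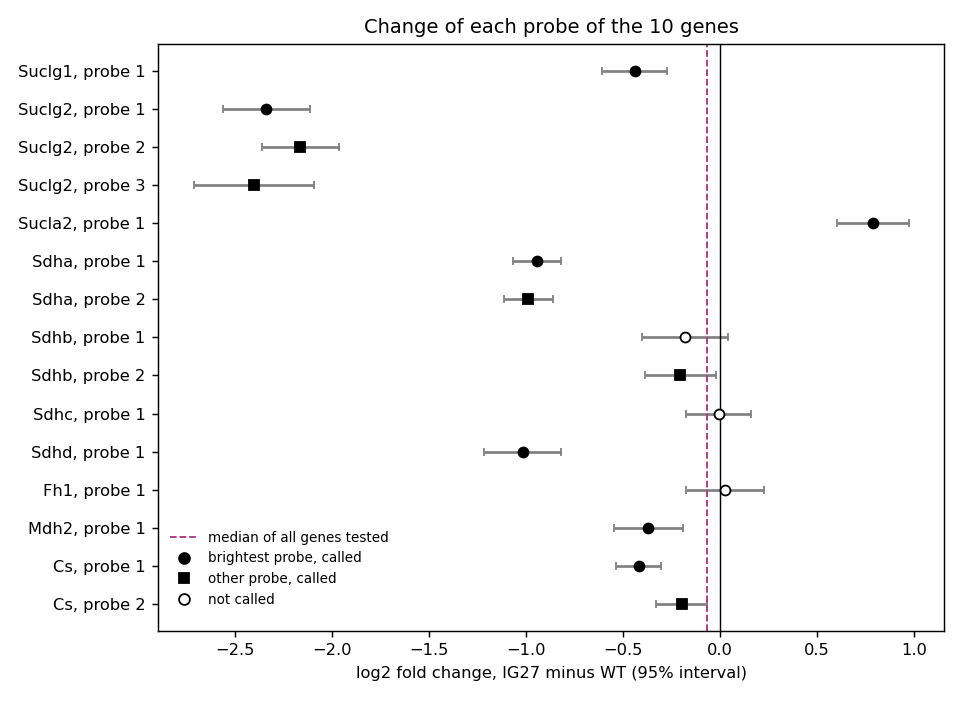
Log2 fold change (IG27 minus WT, horizontal axis) of each of the 15 probes of the 10 genes with its 95% interval from limma over all probes. Circles are the brightest probe of a gene and squares its other probes; filled symbols passed the test and open ones did not. The 3 probes of *Suclg2* lie between -2.40 and -2.16, apart from all others, and *Sucla2* is the only one called higher.

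Chromosomes and close neighbors of the genes were set beside these values. Over all genes tested, 40% were called lower and 30.5% higher. On chromosome 9, which holds *Sdhd*, 71.1% of 813 genes tested were called lower, with a median log2 fold change of -0.64, and 23.9% of them fell as much as *Sdhd* or more. Of the 62 genes of the TCA cycle and of the neighboring pathways described here that were tested, 5 lie on chromosome 9 (*Sdhd*, *Idh3a*, *Pccb*, *Alas1* and *Me1*), and all 5 were called lower. Of the other 57, 21 were called lower and 12 higher. *Suclg2* and *Suclg1* are both on chromosome 6, whose median was -0.21, and 3.12% of its 705 genes fell as much as *Suclg2*. *Sucla2* is on chromosome 14, whose median was -0.28, and 86.8% of its 507 genes had lower fold changes than *Sucla2* or the same. *Sdhb* is on chromosome 4, where the median was 0.33 and 58.4% of 968 genes were called higher. *Sdha* is on chromosome 13, whose median was -0.16, and 16.1% of its 565 genes fell as much or more. For *Mdh2*, on chromosome 5, the median was 0.03 and 23.8% of 919 genes fell as much or more. For *Cs*, on chromosome 10, the median was 0.08 and 20.2% of 682 genes did so. Chromosome 1, with *Sdhc* and *Fh1*, had a median of -0.01.

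The nearest 5 tested genes on each side gave a more local background, chosen after the values were seen. Around *Sdha*, 9 of 10 neighbors were called lower and none higher, with a median of -1.03, close to the -0.94 of *Sdha* itself. Around *Sucla2*, 7 of 10 were called higher and none lower, with a median of 0.43. Around *Sdhd*, 7 of 10 were lower and 2 higher (median -0.41), and around *Suclg2*, 5 were lower and 2 higher (median -0.40). *Mdh2* had 7 lower and *Cs* 6 lower neighbors, with none higher around either. Around *Suclg1*, itself lower, 3 were lower and 2 higher (median -0.05). Around *Sdhb*, 2 were lower and 6 higher (median 0.49), around *Sdhc*, 3 were lower and 6 higher (median 0.34), and around *Fh1*, 6 were lower and 3 higher (median -0.24). DNA copy number was not measured, and the part of chromosome position in these changes was not tested.

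The other enzymes of the cycle and of its branches went both ways. The counts of each list below stand beside 30.5% of all genes called higher and 40% called lower. Of 13 other TCA cycle genes, 12 were tested, 3 were higher and 6 lower, with a median of -0.13. *Idh2*, the mitochondrial isocitrate dehydrogenase that uses NADP, rose by 0.79 on the log2 scale. *Idh3a* and *Idh3b*, subunits of the isocitrate dehydrogenase that uses NAD, had log2 fold changes of -1.10 and -0.74. *Ogdhl* had no probe bright enough to test. These and the following values passed the test at an adjusted p under 0.05 from limma unless stated.

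All 14 genes for the assembly factors of succinate dehydrogenase and for iron-sulfur cluster synthesis were tested, with a median of 0.05. Of these, 2 were higher, 3 lower and 9 not called, a smaller share called than the 70.5% over all genes. The assembly factors *Sdhaf2*, *Sdhaf3* and *Sdhaf4* were among the genes called, and *Sdhaf1* was not. *Hspa9*, a mitochondrial chaperone of iron-sulfur cluster transfer, rose by 0.62. *Sdhaf2*, needed to attach FAD to the flavoprotein, rose by 0.32, but its other probe gave 0.05 and was not called. *Isca2*, of the late steps of cluster assembly, had a log2 fold change of -0.36, and *Sdhaf4*, which binds the flavoprotein during assembly, one of -0.29. Under quantile normalization 7 of the 14 were called higher and 2 lower, so the split of this list depends on the scaling.

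Reactions that feed or drain succinyl-CoA, succinate and fumarate had 13 genes, of which 11 were tested, 1 was higher and 4 lower, with a median of -0.14. *Pccb*, a subunit of the propionyl-CoA carboxylase upstream of succinyl-CoA, had a log2 fold change of -1.67. *Alas1*, which consumes succinyl-CoA at the start of heme synthesis, had one of -0.75, and its 3 probes ran from -0.87 to -0.75. *Sucnr1*, the cell surface receptor for succinate, stayed near background in WT cells (not well above it) and was well above it in IG27 cells. Set against the lowest signal that counts as well above background, its level was at least 13.3-fold higher there. It entered the test through its IG27 level alone, so its call, the only one higher in this list, was largely fixed by the filter, and no p is given. *Fah* and *Sugct* were not bright enough to test.

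Of 10 enzymes at the branches from oxaloacetate, malate and citrate, 9 were tested, 3 were higher and 5 lower, with a median of -0.41. *Pcx*, pyruvate carboxylase, which forms oxaloacetate from pyruvate, rose by 0.95, and *Got1*, the cytosolic aspartate aminotransferase, rose by 0.46. *Me3*, a mitochondrial malic enzyme, had a log2 fold change of -1.39, and *Glud1*, glutamate dehydrogenase, one of -1.02. *Pck1* was not bright enough to test. Of 9 carriers of di- and tricarboxylates, 6 were tested, 2 were higher and 2 lower, with a median of -0.00. *Slc13a5*, the citrate transporter of the cell membrane, was likewise not well above background in WT dishes, and by that bound its level in IG27 dishes was at least 27.2-fold higher. It too entered the test through IG27 cells alone, and no p is given. *Slc13a3*, a dicarboxylate transporter of the cell membrane, rose by 0.32. *Slc25a12*, the mitochondrial carrier of aspartate and glutamate, had a log2 fold change of -1.34, and *Slc25a11*, the carrier of malate and α-ketoglutarate, one of -0.46. *Slc25a13*, *Slc25a21* and *Slc13a2* were not bright enough to test.

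**Figure D4:**
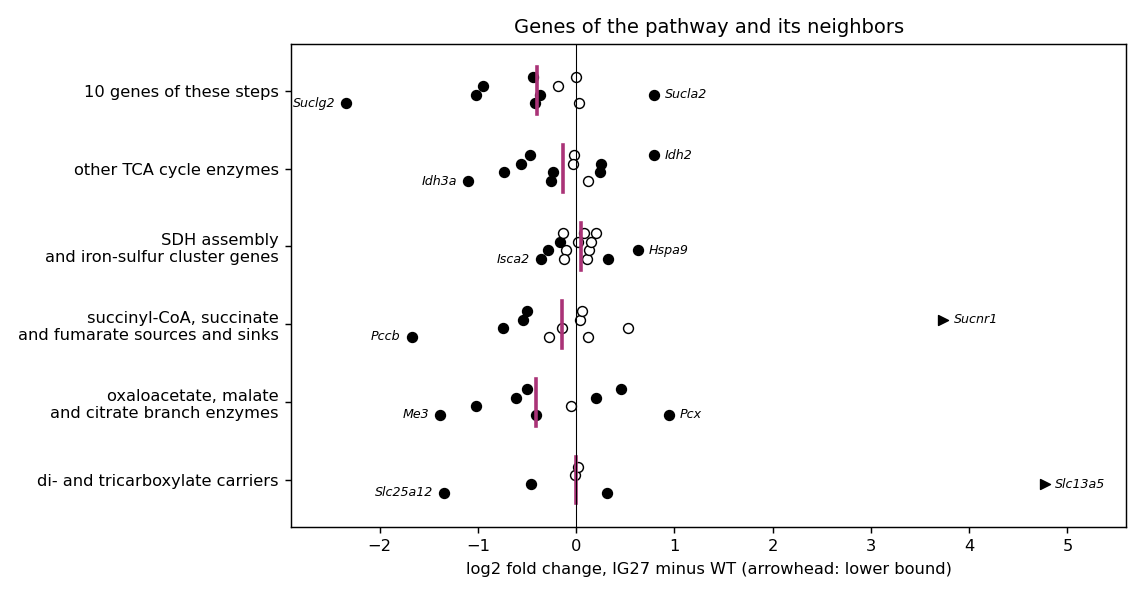
Log2 fold change (IG27 minus WT, horizontal axis) of the 10 genes and of the tested genes of 5 further lists, 1 symbol per gene, with the lowest and highest gene of each list named. Filled symbols passed the test, arrowheads are lower bounds and vertical bars are list medians. *Suclg2* at -2.34 is the lowest value drawn and *Slc13a5* and *Sucnr1* are the highest.

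Over the whole series, 33294 to 34633 of 56605 probes (58.8% to 61.2%) were well above background on the arrays with full scanner output, and no spot was saturated. Arrays correlated at r = 0.994 to 0.997 within groups and 0.902 to 0.905 between them. WT replicates 1 and 3 lay in one row of the slide and the other 4 arrays in the other row. The scanner output of IG27 replicate 2 breaks off early, and its levels come from the deposited value table. The 3 *H3f3a* probes had log2 fold changes of -0.26, 0.17 and -0.20, and whether they read plasmid RNA is not stated, so they do not check the labels. All 11 glial progenitor and astrocyte markers were tested, 5 higher and 4 lower (30.5% and 40% of all genes), and *Slc1a3* and *Cspg4* did not clear background in WT cells. The call of *Slc1a3*, higher, was thus largely fixed by the filter. The summed level of the 11 markers was 294.2 to 308.9 times the 75th percentile in WT and 217.8 to 230.6 times in IG27 cells. Of other cell types, 15 of 22 markers were tested, and *Rbfox3*, *Syt1*, *Ptprc*, *Cx3cr1*, *Cdh5*, *Cldn5* and *Col1a2* were not bright enough. The summed level was 17.5 to 19.9 in WT and 9.95 to 11.0 in IG27 cells for 3 neuronal markers, 13.9 to 15.2 and 17.3 to 18.2 for 4 oligodendrocyte markers, and 148.7 to 152.2 and 80.0 to 85.2 for 4 fibroblast and mural cell markers. It was 0.161 to 0.178 and 2.58 to 2.65 for 2 endothelial markers, and 1.91 to 2.15 and 0.607 to 0.920 for 2 microglial markers. Each sum follows its brightest probes and hides members that moved apart. *Map2*, *Kdr*, *Aif1* and *Dcn* were called higher in IG27 cells, each not well above background in WT. They entered the test through IG27 cells alone, so their calls were largely fixed by the filter. *Tubb3*, *Pecam1*, *Csf1r*, *Col1a1*, *Pdgfrb* and *Acta2* were called lower. The oligodendrocyte marker *Mbp* was higher by the probe used (log2 fold change 0.92). Another *Mbp* probe, brighter in WT cells, gave -2.30, so the direction of the oligodendrocyte sum depends on the probe. Probes of the glial marker *Gfap* also disagree in direction. The part of these marker changes in the values above was not tested.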

How the data were processed

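Total RNA of 3 WT and 3 IG27 dishes was copied into Cy3-labeled cRNA and read on the single-color mouse arrays of 1 Agilent slide. The authors read the spots with Agilent Feature Extraction (version 10.7.3.1 per the file headers, 9.1 in the submitters' processing notes), and the deposited processed signal is an intensity on a linear scale. The deposited table of values holds the same intensity per probe: of 56305 single-spot probes, all 56305 equaled the scanner output on each of the 5 complete arrays (relative tolerance 1e-04), with WT replicates 2 and 3 exchanged, where the scanner labels were used. It supplied IG27 replicate 2, whose scanner output holds 285 of 62976 spots. RNA was extracted with an RNeasy kit per the labels and by another method per the study's supplement.

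Values were log2 of the processed signal minus the array's 75th percentile, without outlier spots (107 to 210 per complete array). The median signal was 55.4 to 77.6 against a local background of 29 to 34, and the number of arrays limits the precision. Probes were named through RefSeq accessions with a table of GRCm38.p6 (32989 of 56605 matched), which also gave chromosomes and promoter sequences, while the array's own header names mm9. A gene was tested if, in at least 1 group, all complete arrays flagged a probe as well above background, and the brightest such probe was used. Differences were tested with limma 3.58.1 (R 4.3.3; lmFit and eBayes, no block, Benjamini-Hochberg adjustment, threshold 0.05), a moderated test as in the study's methods. Partner subunits were compared by exact permutation tests (SciPy 1.17.1). The bound for a gene not well above background in a group is the bright group's mean over, per array, the higher of its own value and the lowest value well above background. The steps were tested on simulated data.

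The genes, lists and tests were chosen with earlier results of these data known. All 10 genes were named, and of each other list the 2 largest called rises and falls, of which 1 is not reported here. Other genes are named for their position or for lacking a test, and the motifs and the neighbor window were chosen after values were seen.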

Additional observations from a re-analysis of the deposited data

How the results depend on the processing

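Of 17 alternatives, of which the complete arrays and the fit without IG27 replicate 2 are 1 and the same fit, every one kept the direction and the call of *Suclg1*, *Suclg2*, *Sucla2*, *Sdha*, *Sdhd*, *Mdh2* and *Cs*, with log2 fold changes of -2.39 to -2.25 for *Suclg2* and 0.74 to 0.85 for *Sucla2*. Several of these alternatives could not change a direction. Both changes of the filter, the eBayes trend, the replicate block and the unadjusted p left the log2 fold changes of these genes as they were. The unadjusted p could not lose a call either, and the mean of probes changes no fold change of a gene with a single probe. The smaller changes moved more: *Suclg1* ran from -0.47 to -0.28 (quantile normalization), *Mdh2* from -0.43 to -0.24 (normexp; -0.25 with the slide row as a block, limma adjusted p = 0.0437) and *Cs* from -0.45 to -0.31 (mean of probes), and *Sdha* from -1.02 to -0.81 and *Sdhd* from -1.11 to -0.90. The count of all genes called ran from 8943 (slide row as a block) to 10852 (unadjusted p).

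The uncalled genes did change. Quantile normalization gave *Fh1* 0.18 (limma adjusted p = 0.0438), so that 2 of the 10 genes were higher, and *Sdhc* 0.14. It also called 7 genes higher among the assembly and iron-sulfur genes and 2 among the sources and sinks, and moved *Sdhb* minus *Sdhc* to -0.27. Normexp, run on the median signals of the complete arrays because mean signals were not used here, gave *Sdhb* 0.0097 and *Sdhc* 0.063. The mean of a gene's probes gave *Sdhb* -0.19 (limma adjusted p = 0.0483) and 2 higher sources and sinks. The strict filter on dim probes dropped *Sucnr1* and *Slc13a5*, leaving 0 higher sources and sinks and 1 higher carrier. With the slide row as a block, WT replicate 2 is the sole WT array of the IG27 row, and this fit gave *Sdhc* 0.024, 1 higher among the other TCA genes and 1 lower among the assembly genes. The cause of the other changes was not tested.

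With 1 array left out, *Sdhb* ran from -0.26 (without IG27 replicate 1, adjusted p = 0.0343 from limma) to -0.13, *Sdhc* from -0.045 to 0.049 (highest without WT replicate 1, and 0.024 without IG27 replicate 3) and *Fh1* from -0.054 (without IG27 replicate 1) to 0.072. Other TCA genes called higher ran from 1 (without WT replicate 1 or IG27 replicate 3) to 3, and sources and sinks called higher from 1 to 2 (without IG27 replicate 1). With the replicate number as a block, *Sdhb* was -0.18 and called (limma adjusted p = 0.0383), and 10306 genes were called. After the group means were subtracted, same-numbered arrays correlated at 0.01 to 0.08 and 3 of 6 arrays correlated best with their own number, so the numbers were not taken to pair the dishes. The replicate block, these correlations and the names of the WT arrays left out follow the scanner labels. The value table exchanges WT replicates 2 and 3, and which numbering is right cannot be told. The exact tests of partner differences cannot pass 0.05 with these arrays, so their alternatives say nothing about stability.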
